A study of Homo sapiens with 8 samples.

Results

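The genes described here are 9 targets of the transcription factor NRF2 that serve antioxidant defence and detoxification, namely NQO1, HMOX1, GCLC, GCLM, TXNRD1, SRXN1, AKR1C1, AKR1C3 and AKR1B10. They were taken by symbol through their Ensembl identifiers, as a set put together with earlier results of these data known, and all 9 were present among the 37441 genes of the count table. RNA was sequenced from a pair of lines of non-small cell lung cancer, NCI-H1581 and NCI-H1703, which are sensitive to inhibition of the fibroblast growth factor receptors (FGFR), and from a resistant variant of each (NCI-H1581R, NCI-H1703R). The variants had been grown in stepwise higher amounts of CPL304110, an FGFR inhibitor, from 50 nM up to 2.5 µM for NCI-H1581R and 5 µM for NCI-H1703R, and no agent other than CPL304110 is named in that selection. Each of the 4 groups had 2 replicates, harvested 24 h after a change of medium, and whether that medium held the inhibitor is not stated. No source used here says whether a variant came from 1 clone. Resistance and long culture in the inhibitor cannot be told apart in this design. The lines were routinely kept in different culture media, so line and medium cannot be told apart either.

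NRF2 (gene NFE2L2) is held at a low level in the cytoplasm by KEAP1, an adaptor that presents it to a CUL3 ubiquitin ligase. Oxidants and electrophiles modify KEAP1, NRF2 then accumulates in the nucleus, pairs with a small MAF protein and binds antioxidant response elements (ARE) in front of its targets, where BACH1 can compete with it. Mutations in KEAP1 or NFE2L2 are recurrent in non-small cell lung cancer, and high levels of aldo-keto reductases are a known mark of lung tumours with constantly active NRF2.

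The ARE is the sequence through which these genes are thought to answer NRF2, so the matches nearest to their start sites are shown. Its core, TGACNNNGC, was searched on both strands in the 1000 bp upstream of the annotated start site of NQO1, GCLC, GCLM, TXNRD1, SRXN1, AKR1C1 and AKR1C3, and the capitals mark the match in GRCh38, written 5′ to 3′ on the strand that carries it.
NQO1, chr16:69726999-69727023, minus strand: agtcacagTGACTCAGCagaatctg
GCLC, chr6:53545955-53545979, plus strand: atatgtgtTGACAGAGCaatgacct
GCLM, chr1:93909448-93909472, plus strand: gaagacaaTGACTAAGCagaaatcg
TXNRD1, chr12:104215672-104215696, plus strand: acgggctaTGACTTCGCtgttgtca
The core was present once in front of these 4 of the 7 genes searched, and 32.5% of 15367 protein-coding genes carried it in a window of the same length. The stricter form TGACTCAGC, which contains the AP-1 element TGACTCA, was found in front of NQO1 alone among the 7, and in 1.37% of the 15367 genes. HMOX1 and AKR1B10 were not searched, because the RefSeq promoter table that limited the search held no entry for them. Counted from the start site, the motif began at -455 bp in NQO1 and at -99 bp in TXNRD1, both on the coding strand. In GCLM it lay at -34 bp and in GCLC at -870 bp, both on the opposite strand, and the GCLC match fell inside the annotated gene because longer transcripts begin further upstream. A match of letters is a description of these windows and does not show binding.

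**Figure D1:**
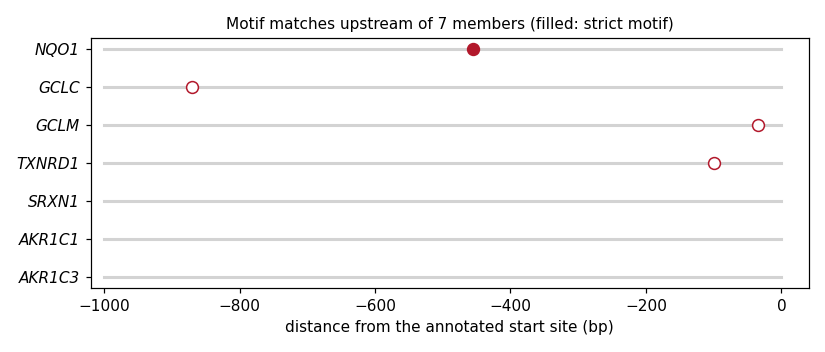
Position of the matches to TGACNNNGC in the 1000 bp upstream of the annotated start site of 7 genes; the horizontal axis is the distance from the start site in bp, each line is a gene and each circle a match, filled for TGACTCAGC. The matches lie at -455 (NQO1), -870 (GCLC), -34 (GCLM) and -99 bp (TXNRD1), and the lines of SRXN1, AKR1C1 and AKR1C3 are empty.

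The libraries held between 33800389 and 40031710 counts, so that 3 counts correspond to 0.0749 to 0.0897 CPM (normalised counts relative to the library total, scaled by TMM factors). All 9 genes passed the minimum of 10 counts in total that left 18203 genes for the tests, AKR1B10 with exactly 10. As a check of the label, transcripts of blood and endothelial markers were at most 18 counts in any library and HBB was at 0. Epithelial markers were also low, with a mean of 14.5 CPM or less for EPCAM in all groups and of 1.12 CPM or less for CDH1, and only KRT18 in NCI-H1703, at 64.9 CPM, exceeded this, while of the mesenchymal markers VIM ranged from 2852 to 6404 CPM, CDH2 was at 49.4 CPM in NCI-H1703 and at 2.85 CPM or less elsewhere, and FN1 was at 832 CPM in NCI-H1581R and at 9.61 CPM or less elsewhere. NKX2-1, a lung lineage factor, was at 14.3 CPM in NCI-H1581 and 49.8 CPM in NCI-H1581R, and the squamous marker TP63 at 6.03 and 29.5 CPM, with both under 1 CPM in NCI-H1703 and NCI-H1703R. The replicates of NCI-H1581R stood further apart than those of the other groups, with a chi-square per degree of freedom of 96.8 against 23.3 to 31.9.

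The 9 genes fell into 6 that were well expressed in both cell lines and 3 aldo-keto reductases that were hardly detected. Together they made up 0.107 to 0.138% of the counts of the 4 NCI-H1581 and NCI-H1581R libraries, and 0.460 to 0.540% of those of the 4 NCI-H1703 and NCI-H1703R libraries. Levels of different genes can be compared per length only, and CPM per kb of mean transcript length was used for this. On that scale NQO1 had the highest level of the 9 in NCI-H1581, at 371 ± 4.54 (SD, n = 2), followed by TXNRD1 at 197 ± 11.2, HMOX1 at 126 ± 4.15, SRXN1 at 57.0 ± 3.97, GCLM at 15.2 ± 1.12 and GCLC at 9.21 ± 1.76. The intervals of 1 SD of these neighbours did not meet. In NCI-H1703 the order began with HMOX1, at 1381 ± 92.0 CPM per kb, TXNRD1 at 1020 ± 53.2 and NQO1 at 755 ± 41.7. In NCI-H1703R, NQO1 at 1039 ± 86.1 CPM per kb stood above TXNRD1 at 794 ± 79.8. In NCI-H1581R the neighbours SRXN1, at 67.6 ± 12.5 CPM per kb, and HMOX1, at 65.5 ± 6.70, did not differ beyond their spread. With the length of all exons joined, TXNRD1 was in the fourth place in NCI-H1581 and in the third in NCI-H1703, so its rank depends on the length used.

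**Figure D2:**
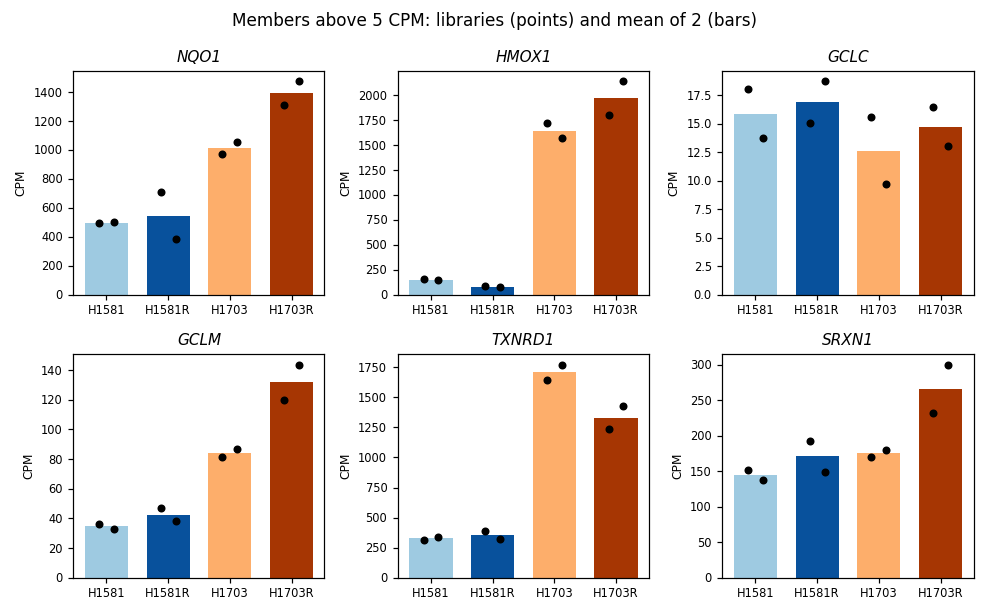
Levels of the 6 well-expressed genes in CPM (vertical axis, from 0, with its own range for each gene) in NCI-H1581, NCI-H1581R, NCI-H1703 and NCI-H1703R; points are libraries and bars the mean of 2 replicates. HMOX1 and TXNRD1 are far higher in both NCI-H1703 groups, the GCLC points of all 4 groups overlap, and the NQO1 points of NCI-H1581R lie apart, at 709 and 384.2 CPM.

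The first comparison, between the sensitive lines, gives the level against which each variant was set. The sensitive NCI-H1703 cells expressed 5 of the 9 genes more highly than the sensitive NCI-H1581 cells, and none lower, by edgeR's quasi-likelihood test at an adjusted p under 0.1. Of all genes tested, 62.9% were called in this comparison, 32.5% higher and 30.4% lower in NCI-H1703, so that a call alone separates little here. HMOX1, the inducible haem oxygenase that splits haem into biliverdin, iron and carbon monoxide, measured 154.2 and 147.2 CPM in NCI-H1581 and 1723 and 1568 CPM in NCI-H1703. Its log2 fold change was 3.45 ± 0.10 (SE), or 10.9-fold (adjusted p = 2.44e-07, edgeR). TXNRD1, the cytosolic thioredoxin reductase, was at 316.3 and 342.7 CPM in NCI-H1581 and at 1645 and 1771 CPM in NCI-H1703. This was a difference of 2.37 ± 0.11 on the log2 scale (adjusted p = 1.91e-06, edgeR).

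GCLM, the modifier subunit of the ligase that makes the first step of glutathione synthesis, was 2.44-fold higher in NCI-H1703 (adjusted p = 4.93e-05, edgeR). GCLC, the catalytic subunit of the same enzyme, measured 18.01 and 13.73 CPM in NCI-H1581 and 15.6 and 9.659 CPM in NCI-H1703, and the lines overlapped. Its difference of -0.31 ± 0.24 on the log2 scale was within the spread (adjusted p = 0.297, edgeR). NQO1, the quinone reductase that is the most widely used readout of NRF2, was 2.04-fold higher in NCI-H1703 (adjusted p = 8.27e-05, edgeR). SRXN1, sulfiredoxin, which repairs overoxidised peroxiredoxins, was 0.28 ± 0.10 higher on the log2 scale (adjusted p = 0.0404, edgeR). That call of SRXN1 was lost in a single fit of all 8 libraries (adjusted p = 0.205) and without replicate 2 of NCI-H1581 (0.135) or of NCI-H1703 (0.177). The 9 genes had a median log2 difference of 0.28, beside 0.04 over all genes tested.

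In NCI-H1581R, HMOX1 fell 1.92-fold, whereas the other 8 genes did not pass the test. The HMOX1 level was 154.2 and 147.2 CPM in NCI-H1581 and 83.7 and 72.4 CPM in NCI-H1581R, which gives group means of 151 ± 4.95 and 78.1 ± 7.99 CPM (SD, n = 2). Both resistant libraries lay below both sensitive ones, and 50.6% of all genes had no overlap between these variants. The fold change of -0.94 ± 0.16 on the log2 scale passed the test (adjusted p = 0.0155, edgeR). In RNA of whole cultures, a lower level in every cell and a smaller share of expressing cells cannot be told apart. Without replicate 1 of NCI-H1581 it was -0.93 (adjusted p = 0.184) and without replicate 2 -0.98 (0.167), fits in which 1 sensitive library is assumed to vary like the resistant group. In this comparison 15.1% of all genes were called, 7.63% higher and 7.44% lower, and 1 of 9 is no more than that background.

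NQO1 measured 493.3 and 501.9 CPM in NCI-H1581 and 709 and 384.2 CPM in NCI-H1581R, so that 1 resistant library lay above and 1 below both sensitive ones. Its log2 fold change of 0.14 ± 0.29 was smaller than its error (adjusted p = 0.827, edgeR), and the direction depended on the library. Without replicate 2 of NCI-H1581R it was 0.50 (adjusted p = 0.0358, edgeR) and without replicate 1 it was -0.36 (0.072). GCLM was at 36.47 and 32.86 CPM in the sensitive and at 46.98 and 38.0 CPM in the resistant libraries, without overlap. The difference of 0.30 ± 0.18 on the log2 scale did not pass the test (adjusted p = 0.378, edgeR), and 50.6% of all genes had no overlap between these variants. TXNRD1, at 316.3 and 342.7 against 386.2 and 318.3 CPM, overlapped between the variants. SRXN1 measured 151.3 and 137.1 CPM in NCI-H1581 and 193.1 and 148.6 CPM in NCI-H1581R, with a log2 difference of 0.25 ± 0.19 (adjusted p = 0.474, edgeR). Without replicate 2 of NCI-H1581R this became 0.41 (adjusted p = 0.0756, edgeR). GCLC was at 15.04 and 18.7 CPM in the resistant cells, which overlapped the sensitive ones. The median log2 fold change of the 9 genes was 0.10, beside 0.04 for all genes tested.

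In NCI-H1703R, 3 of the 9 genes rose and none fell by the same test, GCLM, SRXN1 and NQO1. Of all genes tested 14.7% were called, 7.06% higher and 7.67% lower, and 51.3% had no overlap between the variants. GCLM measured 81.66 and 87.02 CPM in NCI-H1703 and 119.6 and 143.6 CPM in NCI-H1703R. It rose 1.59-fold, by 0.67 ± 0.12 on the log2 scale (adjusted p = 0.0248, edgeR), and both resistant libraries were above both sensitive ones. SRXN1 was at 170.5 and 180.2 CPM in the sensitive and 231.9 and 299.8 CPM in the resistant cells, again without overlap. Its log2 fold change was 0.63 ± 0.14 (adjusted p = 0.0463, edgeR). For NQO1 the levels were 972.9 and 1052 CPM in NCI-H1703 and 1311 and 1474 CPM in NCI-H1703R, a 1.40-fold rise of 0.49 ± 0.12 on the log2 scale (adjusted p = 0.0654, edgeR).

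These 3 genes are an enzyme subunit of glutathione synthesis, a repair enzyme of the peroxiredoxin system and a quinone reductase. Their calls were lost without replicate 1 of NCI-H1703, at adjusted p values of 0.23 for GCLM, 0.307 for SRXN1 and 0.445 for NQO1, and without replicate 2, at 0.194, 0.26 and 0.329 in the same order. NQO1 was also not called without replicate 2 of NCI-H1703R (0.40, adjusted p = 0.138) or in the single fit of 8 libraries (0.46, adjusted p = 0.403).

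HMOX1 and TXNRD1, the most abundant transcripts of the 9 per length in NCI-H1703, differed between the variants with opposite signs, and neither passed the test. HMOX1 was at 1723 and 1568 CPM in the sensitive and at 1807 and 2140 CPM in the resistant libraries, a difference of 0.29 ± 0.13 on the log2 scale (adjusted p = 0.249, edgeR). TXNRD1 was at 1645 and 1771 CPM in the sensitive and at 1236 and 1425 CPM in the resistant libraries, a difference of -0.33 ± 0.13 (adjusted p = 0.187, edgeR). With the replicate number as a block, both were called in edgeR, HMOX1 higher (adjusted p = 0.0262) and TXNRD1 lower (adjusted p = 0.00351). Such a block lets each replicate number have its own level, and whether a number stands for a shared culture round is not stated. The block brought the 9 genes to 4 called higher and 1 lower, while the share of all genes called rose to 34.9%, with 18.2% higher and 16.7% lower. DESeq2 without the block called the same 5 genes, and 21.3% of the 14261 genes to which it gave an adjusted p. It gave none for AKR1C3 and AKR1B10, so this share has another base than those of edgeR. GCLC, at 15.6 and 9.659 CPM in NCI-H1703 and 16.42 and 13.04 CPM in NCI-H1703R, overlapped between the variants (0.25 ± 0.25, adjusted p = 0.612, edgeR). Counting the aldo-keto reductase AKR1B10, 6 of the 9 genes had no overlap between the variants, beside 51.3% of all genes. The median log2 fold change of the 9 was 0.29, beside 0.00 for all genes tested.

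**Figure D3:**
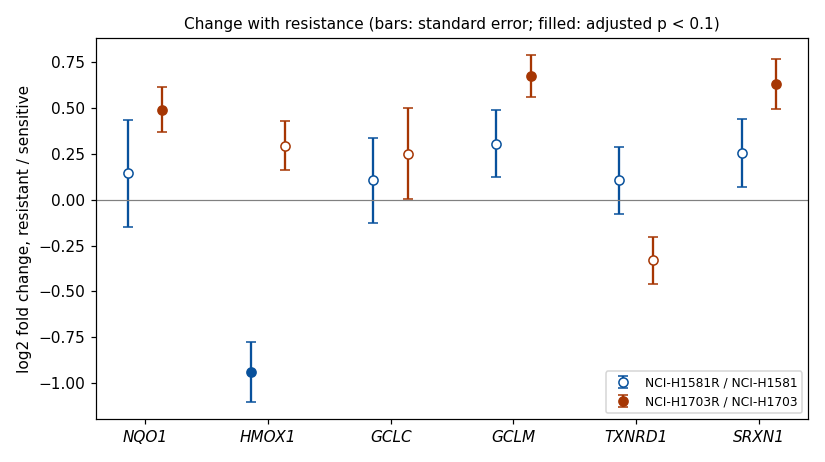
Log2 fold change of the resistant against the sensitive variant (vertical axis) for the 6 well-expressed genes in NCI-H1581 (blue) and NCI-H1703 (orange); bars are the standard error and filled points were called at an adjusted p under 0.1 in edgeR. HMOX1 stands at -0.94 in NCI-H1581R, and GCLM, SRXN1 and NQO1 stand at 0.67, 0.63 and 0.49 in NCI-H1703R.

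Whether a gene changed differently in the 2 lines was tested as an interaction of line and variant over all 8 libraries. HMOX1 was the only one of the 9 genes called, with a change that was 1.21 ± 0.22 higher on the log2 scale in NCI-H1703 than in NCI-H1581 (adjusted p = 0.00961, edgeR). It was also called with a replicate block within each line (adjusted p = 0.0148), with one shared by the lines (0.0231), and in every one of the 16 alternatives run, at adjusted p values up to 0.0621. In this test 15.4% of all genes were called, 6.93% higher and 8.47% lower in NCI-H1703. GCLM, NQO1 and SRXN1 rose in NCI-H1703R and were not called in NCI-H1581R, but their changes were not shown to differ between the lines. The differences were 0.35 ± 0.21 for GCLM (adjusted p = 0.396), 0.32 ± 0.36 for NQO1 (0.684) and 0.36 ± 0.24 for SRXN1 (0.453) in edgeR. For NQO1 this became 0.83 (adjusted p = 0.0148, edgeR) without replicate 1 and -0.05 (0.932) without replicate 2 of NCI-H1581R. The TXNRD1 difference of -0.46 ± 0.22 (adjusted p = 0.261, edgeR) was called without replicate 2 of NCI-H1581R, at -0.59 (0.0732).

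The aldo-keto reductases, which reduce ketosteroids and reactive aldehydes, were below 1 CPM in all 8 libraries, and none of their differences passed the test in any comparison. With so few counts only large changes could be called. AKR1C1 had 14 and 30 counts in NCI-H1581, 5 and 10 in NCI-H1581R, 31 and 12 in NCI-H1703 and 14 and 24 in NCI-H1703R. AKR1C3 had 17 and 20, 0 and 7, 10 and 3, and 7 and 5 counts in the same order of groups. Both were lower without overlap in NCI-H1581R, where 50.6% of all genes had no overlap. Neither passed the test (adjusted p = 0.272 and 0.219, edgeR). AKR1B10 had 1 and 0 counts in NCI-H1581, 0 and 1 in NCI-H1581R, 0 and 1 in NCI-H1703 and 3 and 4 in NCI-H1703R, at or near the limit of 3 counts throughout. These genes share reads with near copies. Of the 31-base words of AKR1C1, 31.1% also occur in AKR1C2, and 18.5% of those of AKR1B10 occur in AKR1B15, so the split of so few counts is uncertain. AKR1C2 itself had at most 16 counts in any library, and AKR1B15 had 13 to 35, above the 0 to 4 of AKR1B10.

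Of the well-expressed targets, 3 overlap exons of another gene. SRXN1 lies on chromosome 20 from 646615 to 653200 on the minus strand and shares 90.6% of its 31-base words with an overlapping gene on the same strand, which had 0 counts in all libraries. NQO1, on chromosome 16 from 69706996 to 69726668 on the minus strand, shares 17.3% with a long non-coding RNA of the opposite strand, and whether the counting used strand is not stated. GCLC overlaps a long non-coding RNA on its own strand over 529 bp of exon and shares 5.74% of its 31-base words with it. The remaining targets lie on chromosome 22 from 35380361 to 35394214 (HMOX1), chromosome 6 from 53497341 to 53616970 (GCLC), chromosome 1 from 93885199 to 93909456 (GCLM), chromosome 12 from 104215779 to 104350307 (TXNRD1), chromosome 10 from 4963253 to 4983283 (AKR1C1) and from 5035354 to 5107686 (AKR1C3), and chromosome 7 from 134527567 to 134541412 (AKR1B10) of GRCh38.

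The regulators of the pathway were taken as a list of 12 genes. In NCI-H1581R, 1 of them was called higher and none lower, and in NCI-H1703R 3 were higher and 1 lower, or 6 and 1 with the replicate block. Beside these and the list counts that follow stand the shares of all genes tested, which were 7.63% higher and 7.44% lower in NCI-H1581R, 7.06% and 7.67% in NCI-H1703R, and 18.2% and 16.7% in NCI-H1703R with the block. NFE2L2, which encodes NRF2, showed a log2 fold change of -0.16 in NCI-H1581R (adjusted p = 0.693, edgeR) and rose by 0.33 in NCI-H1703R (adjusted p = 0.092, edgeR). KEAP1, its inhibitor, had -0.02 in NCI-H1581R and 0.25 in NCI-H1703R (adjusted p = 0.241, or 0.015 with the replicate block, edgeR). BACH1, the repressor, had 0.05 and 0.30 (adjusted p = 0.266 in NCI-H1703R, or 0.0826 with the block, edgeR). NFE2L1, which encodes the related factor NRF1, rose from 397 ± 15.8 to 616 ± 0.212 CPM in NCI-H1703R (adjusted p = 0.0156, edgeR). MAFF, a small MAF protein, fell by 0.59 on the log2 scale in NCI-H1703R (adjusted p = 0.0377, edgeR). BTRC, a ubiquitin ligase subunit that can mark NRF2 independently of KEAP1, rose from 43.32 and 43.47 CPM to 91.3 and 79.99 CPM in NCI-H1581R (adjusted p = 0.013, edgeR). The interaction test called 1 of the 12 regulators higher and 2 lower in NCI-H1703, against 6.93% and 8.47% of all genes. It did not call NFE2L2 (adjusted p = 0.222, edgeR) or NFE2L1 (0.139). With a block within each line these were 0.0822 and 0.0918.

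Beyond the regulators, 6 lists held further genes of the same tasks, which brought the number of list genes tested to 88. In NCI-H1703R 23 of the 88 were called higher and 3 lower, against 7.06% and 7.67% of all genes, and with the replicate block 42 and 5, against 18.2% and 16.7%. Fewer were called in a single fit of 8 libraries (11 and 2) and at a threshold of 0.05 (12 and 2), where fewer of all genes were called too. RLE factors gave 19 and 3, and no count filter 17 and 2 of 91. DESeq2 gave 26 and 3, and a minimum of 10 counts in every library 27 and 3 of 71. In NCI-H1581R 8 were higher and 11 lower, against 7.63% and 7.44%. When any library of NCI-H1703 or NCI-H1703R was left out, fewer list genes were called in NCI-H1703R, and fewer of all genes. In NCI-H1581R fewer list genes were called without a library of NCI-H1581, and more without a library of NCI-H1581R. The number called over all genes also ranged widely in those fits, so their list counts cannot be set beside the shares above.

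Among 22 tested genes of the glutathione system, 4 were higher and 3 lower in NCI-H1581R, and 7 were higher and none lower in NCI-H1703R, or 11 and 1 with the block. All genes were called higher and lower at 7.63% and 7.44% in NCI-H1581R and at 7.06% and 7.67% in NCI-H1703R. The median log2 fold changes of the list were 0.20 and 0.29, beside 0.04 and 0.00 for all genes. SLC7A11, the cystine carrier that feeds glutathione synthesis, rose in both variants, from 59.82 and 78.35 to 142.4 and 153.2 CPM in NCI-H1581R (adjusted p = 0.017, edgeR) and from 92.29 and 88.19 to 208 and 248.7 CPM in NCI-H1703R (adjusted p = 0.00228, edgeR). CHAC1, which degrades glutathione, also rose in both, by 3.45 on the log2 scale in NCI-H1581R (adjusted p = 0.000127, edgeR) and by 0.72 in NCI-H1703R (adjusted p = 0.0106, edgeR). GSTA4, a transferase for lipid aldehydes, rose by 0.92 in NCI-H1581R and 0.49 in NCI-H1703R. GPX3, a secreted glutathione peroxidase, rose from 92 and 173 to 1177 and 1424 counts in NCI-H1581R, while NCI-H1703 and NCI-H1703R had at most 1 count. The genes of this list that rose in both variants thus include a supplier and a degrader of glutathione.

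Of 13 tested thioredoxin and peroxiredoxin genes, 1 was higher and 1 lower in NCI-H1581R, where 15.1% of all genes were called, and 1 was higher in NCI-H1703R, where 14.7% were. SESN2, a stress-induced sestrin, rose in both variants, by 1.03 in NCI-H1581R (adjusted p = 0.0114, edgeR) and 0.57 in NCI-H1703R (adjusted p = 0.0329, edgeR) on the log2 scale. PRDX2, a cytosolic peroxiredoxin, fell in NCI-H1581R from 75.55 and 67.96 to 19.98 and 13.46 CPM (adjusted p = 0.00228, edgeR), and it had at most 8 counts in the NCI-H1703 and NCI-H1703R libraries. With the block 5 of the 13 were higher in NCI-H1703R, beside 18.2% of all genes.

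The NADPH list, enzymes that supply the electrons for NQO1, thioredoxin reductase and glutathione reductase, had 1 of 7 genes higher in NCI-H1581R and 2 higher and 1 lower in NCI-H1703R, or 5 and 1 with the block, beside 15.1%, 14.7% and 34.9% of all genes called in either direction. ME1, malic enzyme, rose from 18.25 and 15.61 to 40.81 and 33.07 CPM in NCI-H1581R (adjusted p = 0.0155, edgeR), and stayed at 7 counts or fewer in all libraries of the NCI-H1703 line. IDH1, the cytosolic isocitrate dehydrogenase, rose from 64.53 and 65.88 to 135 and 121.7 CPM in NCI-H1703R (adjusted p = 0.00447, edgeR). TKT, transketolase, rose by 0.63 on the log2 scale in NCI-H1703R (adjusted p = 0.0243, edgeR).

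Of 10 genes of haem and iron handling, which surround HMOX1, 4 were higher in NCI-H1703R and none lower, against 7.06% and 7.67% of all genes, and with the block 5 were higher and 1 lower. In NCI-H1581R 1 was lower, against 7.44% of all genes. The interaction called 4 of the 10 higher and 1 lower in NCI-H1703, against 6.93% and 8.47% of all genes. With a block within each line, edgeR called TFRC (adjusted p = 0.0204), BLVRB (0.0473), ALAS1 (0.0473), FTH1 (0.0595) and SLC48A1 (0.0859) higher. It called BLVRA (0.0631) lower. With a block shared by the lines the counts were 1 and none, but the replicate numbers are not known to pair libraries of different lines. The share of all genes called with either block is not given here, so these blocked calls have no background beside them. Genes of other lists were also called with the block within each line. BLVRB, biliverdin reductase B, rose from 78.53 and 80.89 to 130.9 and 131.4 CPM in NCI-H1703R (adjusted p = 0.00708, edgeR). SLC48A1, a haem carrier of lysosomes, rose from 65.99 and 69.29 to 107.3 and 117.6 CPM there (adjusted p = 0.00925, edgeR). TFRC, the transferrin receptor, went in opposite directions, by -0.62 in NCI-H1581R (adjusted p = 0.0985, edgeR) and 0.47 in NCI-H1703R (adjusted p = 0.0605, edgeR) on the log2 scale.

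In the list of reductases and conjugation enzymes, 1 of 21 tested genes was higher and 5 were lower in NCI-H1581R, against 7.63% and 7.44% of all genes. In NCI-H1703R 5 were higher and none lower, against 7.06% and 7.67%, and with the block 9 were higher. The interaction test called 6 of the 21 higher and 1 lower in NCI-H1703, against 6.93% and 8.47%. OSGIN1, an oxidative stress-induced growth inhibitor and known NRF2 target, measured 12.64 and 9.113 CPM in NCI-H1581 and 2.232 and 2.693 CPM in NCI-H1581R (adjusted p = 0.00731, edgeR). In the other line it measured 79.77 and 62.95 CPM in NCI-H1703 and 175 and 175.2 CPM in NCI-H1703R (adjusted p = 0.00358, edgeR). CBR1, a carbonyl reductase, changed by -0.70 in NCI-H1581R (adjusted p = 0.0804, edgeR) and by 0.70 in NCI-H1703R (adjusted p = 0.0198, edgeR). In the list of superoxide and peroxide enzymes, catalase (CAT) changed by -0.86 (adjusted p = 0.0706, edgeR) and 0.48 (adjusted p = 0.0544, edgeR) in the same order, and 3 genes of that list were tested. OSGIN1, CBR1, CAT and TFRC were thus called lower in NCI-H1581R and higher in NCI-H1703R. The interaction test called each of them, at log2 differences of 3.43, 1.38, 1.32 and 1.06 (adjusted p = 0.000273, 0.0086, 0.022 and 0.0149, edgeR). They were grouped by their opposite calls in these same libraries, so that test is not independent of the grouping.

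Of the other genes with large changes in the last 2 lists, CYP4F11, ABCG2, CYP1B1 and PXDN were called in 1 line each and in the interaction (adjusted p = 0.0667 for CYP4F11, 0.0031 for ABCG2, 0.000229 for CYP1B1 and 0.000573 for PXDN, edgeR). CYP4F11, a fatty acid hydroxylase, rose from 111 and 75 to 2941 and 2543 counts in NCI-H1703R (adjusted p = 0.000327, edgeR), and had 3 counts or fewer in the NCI-H1581 and NCI-H1581R libraries. ABCG2, a drug efflux pump, rose from 18 and 11 to 22436 and 17312 counts in NCI-H1581R and had 5 to 8 counts in the libraries of NCI-H1703 and NCI-H1703R. CYP1B1, an oxidase of steroids and aromatic compounds, fell from 533 and 620 to 6 and 0 counts in NCI-H1581R (adjusted p = 0.000243, edgeR), and its change of -0.31 in NCI-H1703R did not pass the test (adjusted p = 0.55, edgeR). PXDN, a haem peroxidase of the extracellular matrix, fell by 2.11 on the log2 scale in NCI-H1703R (adjusted p = 0.000519, edgeR). CBR3, a carbonyl reductase named after its values were seen, fell from 732 and 779 to 99 and 53 counts in NCI-H1581R (adjusted p = 0.00131, edgeR), had at most 2 counts in NCI-H1703 and NCI-H1703R, and was not called in the interaction (adjusted p = 0.947, edgeR).

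**Figure D4:**
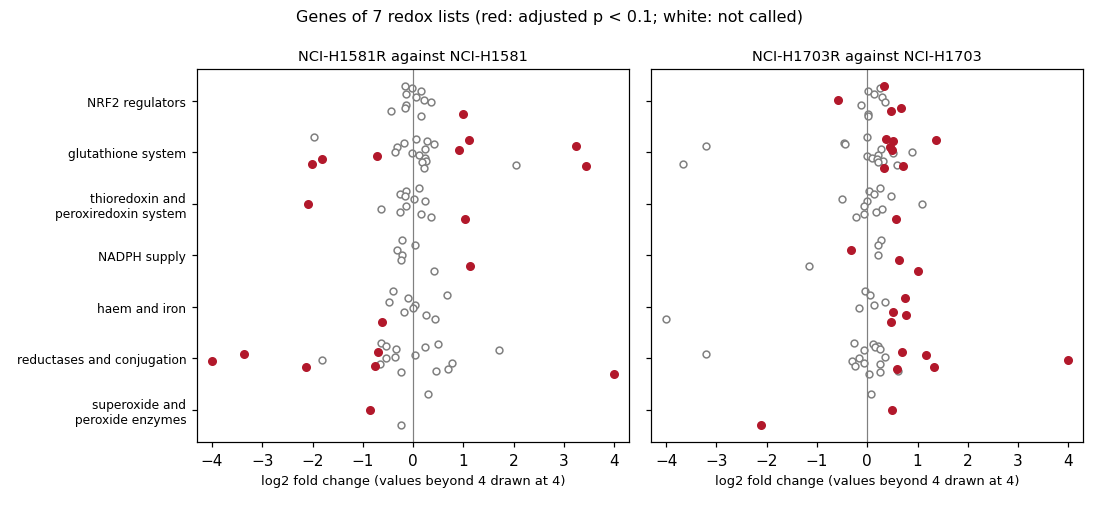
Log2 fold change of each tested gene (horizontal axis) in 7 lists (rows) for NCI-H1581R against NCI-H1581 and NCI-H1703R against NCI-H1703; red points were called at an adjusted p under 0.1 in edgeR, white points were not, and values beyond 4 in either direction are drawn at 4. Red points lie on both sides of 0 in NCI-H1581R, 8 higher and 11 lower, and mostly to the right in NCI-H1703R, 23 higher and 3 lower.

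As a description of shape only, the genes whose log2 CPM followed each target most closely over the 8 libraries were sought among 13376 genes with a mean of at least 1 CPM. Pearson's r was 0.999 for HMOX1 with STX4 and 0.998 with CCL2, 0.998 for TXNRD1 with GRK6, 0.996 for NQO1 with NDFIP1, 0.995 for GCLM with GULP1, 0.980 for SRXN1 with RAB9A and 0.964 for GCLC with SAMD4B. For TXNRD1 a gene listed by its identifier only stood just above GRK6, also at 0.998. The 8 points share the 2 lines, so a gene that differs between the lines scores high with any other that does. None of the nearest genes belonged to the lists used here.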

How the data were processed

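The 8 libraries are 2 replicates each of NCI-H1581, NCI-H1581R, NCI-H1703 and NCI-H1703R. The authors trimmed reads with cutadapt, quantified them with Salmon against GRCh38 and summed transcripts with tximport. They deposited an estimated count for each gene as a whole number, without normalisation. Tool versions, annotation release and strandedness are not given in the sources used here. Symbols and positions came from GENCODE v44 (34495 of 37441 identifiers matched), and motif sequences from GRCh38 for genes in a RefSeq promoter table.

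Genes with at least 10 counts in total were tested with edgeR 4.0.16 (TMM, quasi-likelihood, two-sided) in R 4.3.3, within each line, between the sensitive lines and as an interaction over all libraries. Calls were made at a Benjamini-Hochberg adjusted p under 0.1. The standard error is the log2 fold change divided by the square root of F. CPM used TMM factors over all 8 libraries. Models were tested on simulated data. Alternatives included DESeq2 1.42.0, RLE factors, other filters and each library left out in turn.

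Replicates came from the culture procedure performed again. The block assumes that same-numbered libraries of a line shared a round, which the sources do not state. Deviations from group means correlated at 0.303 between NCI-H1581 and NCI-H1581R and at 0.563 between NCI-H1703 and NCI-H1703R over 8905 genes. Across lines the correlations ranged from -0.584 to 0.0956. The numbers were therefore not taken to pair libraries of different lines, and for the interaction a block within each line was also fitted. As a correlation of -0.584 arose between lines, the values within lines cannot settle the pairing either. Blocked values are given where they changed a call of the 9 genes or moved a list count by over 1.5 times. The sources do not tie replicates to separate frozen stocks, so p-values measure the spread between these cultures. The floor of 3 counts covers counting error only.

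The 9 genes and all lists were chosen with earlier results of these data known. All 9 are reported. List genes named are those called in both lines and, per list and line, the 2 called genes with the largest log2 fold change, plus NFE2L2, KEAP1 and BACH1. Haem and iron genes called in the interaction with a block within each line are named as well. AKR1C2 and AKR1B15 are named as near copies.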

Additional observations from a re-analysis of the deposited data

Results flagged for a closer look

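The change of HMOX1 with resistance differed between the lines by a test of the difference itself. It was 1.21 ± 0.22 higher on the log2 scale in NCI-H1703 than in NCI-H1581 (adjusted p = 0.00961, edgeR interaction test over 8 libraries), with -0.94 in NCI-H1581R and 0.29 in NCI-H1703R. The decrease was seen in both NCI-H1581R libraries, and both NCI-H1703R libraries were above both NCI-H1703 libraries. Of all genes, 50.6% and 51.3% had no overlap between the variants of these lines. In edgeR the rise by itself was called with the replicate block and not without it. The sensitive cells of the 2 lines also differed in HMOX1 level, by 10.9-fold. The lines differed in culture medium and in the concentration of CPL304110 reached, 2.5 and 5 µM. What part these play was not tested.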

How the results depend on the processing

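With 2 replicates per group, leaving out a library leaves a group with 1, which is then assumed to vary like the others. The number of the 9 genes called ranged from 0 to 3 in NCI-H1581R (1 with all libraries), from 0 to 3 in NCI-H1703R (3), from 1 to 2 in the interaction (1) and from 4 to 6 between the sensitive lines (5) when libraries were left out 1 at a time. In NCI-H1703R it was 5 with DESeq2 and 5 with the replicate block. The block changed no other call of the 9 genes than those of HMOX1 and TXNRD1 in NCI-H1703R. Over all genes, leaving out a library moved the number called from 2743 to between 1122 and 5186 in NCI-H1581R, from 2683 to between 274 and 1686 in NCI-H1703R and from 2803 to between 1571 and 4141 in the interaction. A threshold of 0.05 gave 1793 and 1640 for the variants, a single fit of 8 libraries 4539 and 1730, and the block 6357 in NCI-H1703R.

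Directions that turned belonged to small differences or few counts, and the cause was not tested. With a library left out, log2 fold changes ranged in NCI-H1581R from -0.36 to 0.50 for NQO1, -0.09 to 0.29 for GCLC, -0.03 to 0.22 for TXNRD1 and -2.33 to 2.33 for AKR1B10. In NCI-H1703R they ranged from -0.03 to 0.62 for GCLC, -0.69 to 0.49 for AKR1C1 and -0.71 to 0.81 for AKR1C3. In the interaction they ranged from -0.05 to 0.83 for NQO1 and -0.15 to 0.52 for GCLC. Between the sensitive lines they ranged from -0.71 to 0.55 for AKR1C1 and -2.33 to 2.37 for AKR1B10, and AKR1C1 was at -0.01 under a minimum of 10 counts per library. Of 364 list counts under alternatives, 261 stayed within 1.5 times the count given. DESeq2 gave no adjusted p for AKR1B10, nor for AKR1C3 in NCI-H1703R. Depth limits the 3 aldo-keto reductases, all below 1 CPM.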

Other observations

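The catalytic and modifier subunits of the glutamate-cysteine ligase stood in different proportions in the 2 lines. The ratio of GCLM to GCLC, in CPM per kb, was 1.54 and 1.81 in NCI-H1581, 2.37 and 1.54 in NCI-H1581R, 3.97 and 6.83 in NCI-H1703 and 5.52 and 8.35 in NCI-H1703R. Both NCI-H1703 groups lay above both NCI-H1581 groups, and this ratio was chosen after its values were seen. The ratio of HMOX1 to NQO1 per kb, also chosen after the values were seen, was 0.351 and 0.330 in NCI-H1581, 0.133 and 0.212 in NCI-H1581R, 1.99 and 1.68 in NCI-H1703 and 1.55 and 1.63 in NCI-H1703R.

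Although NCI-H1703 had the higher level of 5 NRF2 targets, the 7 genes of the NADPH list were all called lower in sensitive NCI-H1703 than in sensitive NCI-H1581, with a median log2 difference of -1.17 (30.4% of all genes tested were called lower), and 6 of them were lower with the replicate block. Of the 13 thioredoxin and peroxiredoxin genes 8 were lower and 1 higher, and of the 3 superoxide and peroxide enzymes tested all were lower. Other lists did not lean this way alone. Haem and iron genes were 7 higher and 3 lower of 10, and the regulators 6 and 3 of 12. The glutathione list had 8 higher and 8 lower of 22, and the reductases 4 and 7 of 21. Across the 88 list genes 26 were higher and 39 lower, against 32.5% and 30.4% of all genes.

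NQO1 lies among genes that fell in NCI-H1581R. Of 33 genes with a mean of at least 1 CPM within 1 Mb of NQO1, 16 were called lower and 1 higher in NCI-H1581R. The shares of all genes were 7.44% and 7.63%. The median log2 fold change of the 33 was -0.63. The same genes had a median of 0.06 in NCI-H1703R, where 1 was higher and none lower. NQO1 itself, at 0.14 ± 0.29 in NCI-H1581R, was above the median of these genes there. Its direction was uncertain, as it was -0.36 without replicate 1 of NCI-H1581R, and its difference from the neighbours was not tested. The window was chosen with the levels of NQO1 known, and copy number was not analysed here. For the 9 expressed neighbours of HMOX1 the median was -0.01 in NCI-H1581R and 1 was called higher.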
